A study of Mus musculus with 17 samples.

Results

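The genes described here were 10 genes that mark lipid-associated, scar-associated macrophages: *Trem2*, *Gpnmb*, *Cd9*, *Cd63*, *Lgals3*, *Lpl*, *Cd36*, *Plin2*, *Spp1* and *Fabp5*. They were chosen by name, as the rows of the deposited gene count table that carry these symbols, and were 10 of the 55421 genes of that table. Earlier results of these data were known when they were chosen. RNA was taken from first-passage lung fibroblast cultures of 17 mice, 1 mouse per library, and was sequenced as total RNA with a strand-preserving kit. All mice were Ephb4f/f;Col1a2-CreERT2 on a C57BL/6J background and were of both sexes, so the controls carried the floxed alleles and the inducible Cre as well. Cre was driven by the *Col1a2* promoter, which is active in fibroblasts and other collagen-producing cells. At 4 weeks of age the mice received corn oil (*Ephb4* control) or 1 mg of 4-hydroxytamoxifen daily for 5 days (*Ephb4* CKO). At 6 weeks PBS or bleomycin at 1.2 U/kg was instilled into the trachea, with harvest of the lungs 14 days after. The groups were *Ephb4* control PBS (n = 4), *Ephb4* control bleomycin (n = 4), *Ephb4* CKO PBS (n = 5) and *Ephb4* CKO bleomycin (n = 4), called control PBS, control bleomycin, CKO PBS and CKO bleomycin in what follows. The numbers given to replicates only name libraries.

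Macrophages that clear dying cells and lipid-rich debris take up fatty acids and cholesterol, store them as droplets and break them down in lysosomes. In injured and fibrotic lung, as in fatty liver and obese adipose tissue, such cells turn on a shared set of genes around the lipid-sensing receptor TREM2, and in scars they lie next to collagen-producing fibroblasts. Several of the genes are not specific to macrophages, since galectin-3, osteopontin, tetraspanins and the droplet coat protein perilipin 2 are made by many cell types.

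The libraries held 66540022 to 120554468 counts (median 93075927). Although the cultures were labelled lung fibroblasts, the summed level of the macrophage markers, 17 of 18 of which passed the filter, was above that of the fibroblast markers (12 of 14 passed) in 16 of 17 libraries. The macrophage sum ran from 10162 to 43564 CPM (counts scaled to a common library size with TMM factors) in control PBS, from 1421 to 20327 in control bleomycin, from 22588 to 42282 in CKO PBS and from 22533 to 42944 in CKO bleomycin. The fibroblast sum ran from 20.9 to 7443 CPM, from 5729 to 11862, from 54.2 to 1954 and from 27.7 to 1642 in the same order. The fibroblast markers *Tcf21* and *Fap* had a median under 1 CPM. Control bleomycin 1 stood apart with the lowest macrophage sum (1421 CPM, against 10257 CPM for the fibroblast markers), and was the 1 library where the fibroblast sum was the larger. The macrophage sum was carried by *Lyz2*, the lysozyme gene (median 18505 CPM over the libraries). By the mean log2 CPM of the markers, which weights genes equally, the macrophage markers were above the fibroblast markers in 13 libraries and below them in 4 (control PBS 3 and control bleomycin 1, 2 and 4). *Ephb4*, the targeted gene, measured 24.2, 4.01, 33.2 and 2.33 CPM in control PBS, 64.7, 13.1, 35.3 and 40.5 CPM in control bleomycin, 7.72, 23.6, 8.95, 4.01 and 4.05 CPM in CKO PBS and 14.0, 9.53, 10.1 and 4.94 CPM in CKO bleomycin. The control and CKO ranges of *Ephb4* overlapped after PBS and after bleomycin. In 3 libraries (control bleomycin 2 and CKO bleomycin 1 and 2) genes of the sex chromosomes went against the labelled sex. In such bulk RNA, fewer macrophages and less RNA of these genes per macrophage cannot be told apart.

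All 10 genes passed the expression filter, as did 10481 genes in all. By mean CPM over the libraries, *Gpnmb* ranked 14th, *Spp1* 22nd and *Lgals3* 35th among the genes kept, and the lowest of the 10, *Trem2*, ranked 952nd. Together the 10 genes took 0.347% of all counts in control bleomycin 1 and 2.90% in CKO PBS 5, the lowest and highest shares. Per kilobase of exon, the median level was highest for *Spp1* (1503 CPM per kb), followed by *Lgals3* (648), *Gpnmb* (433), *Cd9* (365), *Cd36* (317), *Plin2* (235) and *Fabp5* (218). *Cd63* (73.7 CPM per kb), *Lpl* (67.7) and *Trem2* (14.4) were the lowest. Neighbours in this order had overlapping ranges over the libraries, for example 286 to 4219 CPM per kb for *Spp1* and 68.1 to 2325 for *Lgals3*. With the longest protein-coding transcript as the length, *Fabp5* moved from place 7 to place 3 (786 CPM per kb). Counts of overlapping genes and near-identical copies were small beside the members. The table held 4982 summed counts for *Gm42793*, which overlaps *Spp1* on the same strand, against 4852653 for *Spp1*, and 2656 for the pseudogene *Cd63-ps*.

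**Figure D1:**
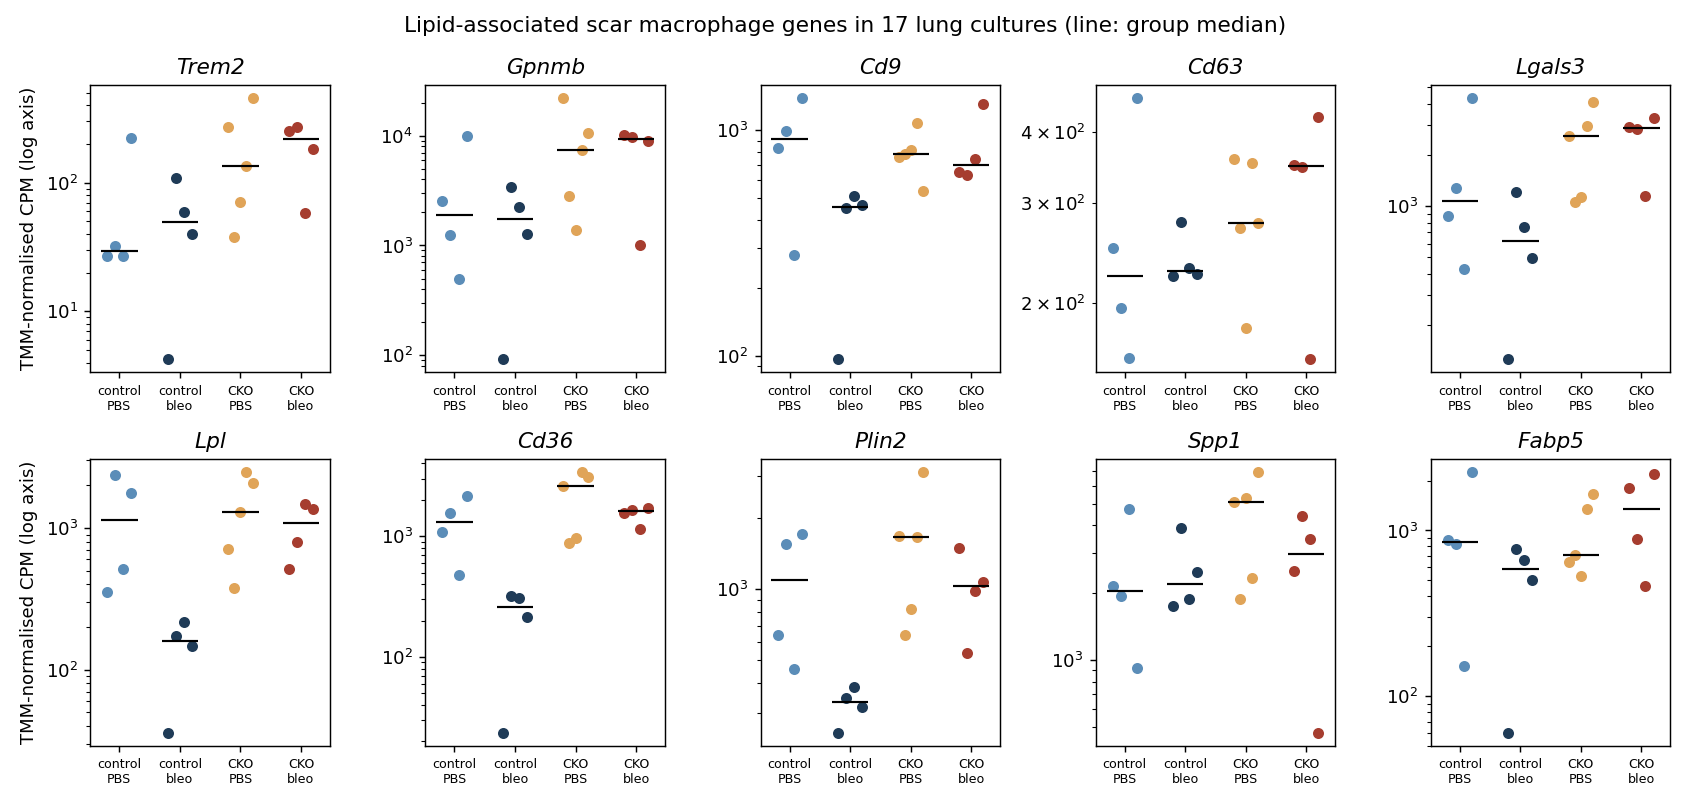
Level of each of the 10 genes in every library (log-scaled y axis, TMM-scaled CPM), by group on the x axis. In *Lpl*, *Cd36* and *Plin2* all 4 control bleomycin libraries lie below all control PBS and all CKO bleomycin libraries. The *Spp1* points of the 4 groups overlap.

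The receptor genes come first. *Trem2* (ENSMUSG00000023992, chr17:48346401-48354147, + strand) encodes the lipid-sensing receptor of the triggering receptor family, which signals through the adaptor TYROBP. It measured 27.0, 31.9, 26.9 and 221 CPM in control PBS, 4.26, 109, 59.1 and 39.6 CPM in control bleomycin, 271, 37.7, 71.2, 134 and 455 CPM in CKO PBS and 251, 269, 58.1 and 183 CPM in CKO bleomycin. Control PBS 4 was far above the other control PBS libraries, and the 4 groups overlapped. *Gpnmb* (ENSMUSG00000029816, chr6:49036546-49070929, + strand) encodes a transmembrane glycoprotein of lysosome-rich macrophages. It measured 2541, 1245, 495 and 9855 CPM in control PBS, 92.6, 3391, 2238 and 1268 CPM in control bleomycin, 21998, 2823, 1376, 7441 and 10505 CPM in CKO PBS and 10096, 9684, 1009 and 8895 CPM in CKO bleomycin. The same library, control PBS 4, was the highest of its group, CKO bleomycin 3 was the lowest of its group for both genes, and the groups overlapped. Over the 17 libraries *Gpnmb* spanned 238-fold and *Trem2* 107-fold, with *Cd36* (145-fold) between them.

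The genes of fatty acid entry showed less spread within groups. *Lpl* (ENSMUSG00000015568, chr8:68880491-68907448, + strand) encodes lipoprotein lipase, which releases fatty acids from circulating triglyceride. It measured 353, 2368, 515 and 1762 CPM in control PBS, 35.9, 173, 217 and 147 CPM in control bleomycin, 709.9, 375, 1307, 2497 and 2074 CPM in CKO PBS and 516, 802, 1469.7 and 1357 CPM in CKO bleomycin. All 4 control bleomycin libraries lay below the 13 others. *Cd36* (ENSMUSG00000002944, chr5:17781690-17888801, - strand) encodes the scavenger receptor that takes up fatty acids and oxidised lipoprotein. It measured 1075, 1552, 473 and 2132 CPM in control PBS, 23.6, 321, 306 and 215 CPM in control bleomycin, 2614, 885, 962, 3413 and 3111 CPM in CKO PBS and 1555, 1657, 1138 and 1709 CPM in CKO bleomycin. Control bleomycin was again below every other library, and the CKO bleomycin values lay within a 1.5-fold range.

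Of the genes that carry and store lipid inside the cell, *Plin2* (ENSMUSG00000028494, chr4:86648386-86670060, - strand) encodes perilipin 2, a coat protein of lipid droplets. It measured 639, 1550.2, 459 and 1705 CPM in control PBS, 248, 347, 387 and 318 CPM in control bleomycin, 1682, 642, 826, 1654 and 3127 CPM in CKO PBS and 1496, 537, 985 and 1069 CPM in CKO bleomycin. The 4 control bleomycin libraries were the lowest of the 17. *Fabp5* (ENSMUSG00000027533, chr3:10012548-10016607, + strand) encodes a cytosolic fatty acid binding protein. It measured 876, 828, 151 and 2264 CPM in control PBS, 59.95, 776, 659 and 504 CPM in control bleomycin, 642, 716, 533, 1347 and 1656 CPM in CKO PBS and 1798, 887, 461 and 2192 CPM in CKO bleomycin. Unlike *Plin2*, its groups overlapped, with control PBS 3 and control bleomycin 1 the lowest libraries.

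The tetraspanins organise receptors and adhesion molecules in membranes, and CD63 is a resident of late endosomes and lysosomes. *Cd9* (ENSMUSG00000030342, chr6:125460266-125494791, - strand) measured 838, 991, 281 and 1392 CPM in control PBS, 96.9, 451, 511 and 465 CPM in control bleomycin, 761, 788, 819, 1075 and 540.0 CPM in CKO PBS and 653, 632, 746 and 1305 CPM in CKO bleomycin. Control bleomycin lay below both CKO groups, and control PBS 3, at 281 CPM, fell among its values. *Cd63* (ENSMUSG00000025351, chr10:128900989-128912822, + strand) measured 249.98, 196, 160.3 and 459.6 CPM in control PBS, 223, 278, 230.5 and 225 CPM in control bleomycin, 359, 271, 181, 353 and 277 CPM in CKO PBS and 350.2, 348, 159.5 and 426 CPM in CKO bleomycin. It had the narrowest range of the 10 genes, 2.88-fold over all libraries, and its groups overlapped.

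The remaining pair are secreted proteins. *Lgals3* (ENSMUSG00000050335, chr14:47367751-47386160, + strand) encodes galectin-3, a lectin made abundantly by macrophages. It measured 874, 1283, 426 and 4319 CPM in control PBS, 126, 1204, 750.3 and 492 CPM in control bleomycin, 2594, 1064, 1124, 2969 and 4084 CPM in CKO PBS and 2937, 2826, 1153 and 3296 CPM in CKO bleomycin. Its control bleomycin and CKO bleomycin ranges met at 1204 and 1153 CPM. *Spp1* (ENSMUSG00000029304, chr5:104435118-104441050, + strand) encodes osteopontin, a matrix protein and integrin ligand. It measured 2134, 1929, 4711 and 919 CPM in control PBS, 1748, 3901, 1877 and 2477 CPM in control bleomycin, 5075, 1864, 5299.9, 2325 and 6952 CPM in CKO PBS and 2489, 4422, 3472 and 472 CPM in CKO bleomycin. Its lowest library was CKO bleomycin 4 and its highest CKO PBS 5, and no group stood apart.

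Windows of 250 bases before to 50 bases after the transcript start were held by RefSeq (GRCm38.p6) for 8 of the 10 genes, 9 windows in all, and not for *Lpl* and *Fabp5*. They were searched on both strands for the E-box CACGTG, which MiT/TFE factors bind, the AP-1 site TGANTCA and the PU.1 core GAGGAA. These 3 motifs are held by 7.15%, 7.81% and 28.3% of all 32851 windows. Of the 8 genes, 1 held the E-box (*Plin2*), 2 held the AP-1 site (*Trem2* and *Gpnmb*) and 3 held the PU.1 core (*Trem2*, *Cd63* and *Spp1*). The 5 windows below belong to the receptor pair, to the droplet coat and fatty acid uptake genes that were lowest in control bleomycin, and to *Spp1*, the gene that did not follow the others. They are written 5′ to 3′ along the gene's strand, with a match to any of the 3 motifs in capitals. The *Trem2* window is chr17:48346151-48346450 (+), *Gpnmb* chr6:49036268-49036567 (+), *Plin2* chr4:86670010-86670309 (-), *Cd36* chr5:17835847-17836146 (-) and *Spp1* chr5:104434861-104435160 (+). The RefSeq start used for *Cd36* lies 52905 bp inside the gene as GENCODE draws it.
Trem2: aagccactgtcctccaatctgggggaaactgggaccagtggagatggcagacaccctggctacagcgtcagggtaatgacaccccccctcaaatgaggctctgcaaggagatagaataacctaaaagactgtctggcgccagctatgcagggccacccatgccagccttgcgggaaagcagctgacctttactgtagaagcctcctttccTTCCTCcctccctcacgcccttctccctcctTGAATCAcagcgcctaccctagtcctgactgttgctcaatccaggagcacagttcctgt
Gpnmb: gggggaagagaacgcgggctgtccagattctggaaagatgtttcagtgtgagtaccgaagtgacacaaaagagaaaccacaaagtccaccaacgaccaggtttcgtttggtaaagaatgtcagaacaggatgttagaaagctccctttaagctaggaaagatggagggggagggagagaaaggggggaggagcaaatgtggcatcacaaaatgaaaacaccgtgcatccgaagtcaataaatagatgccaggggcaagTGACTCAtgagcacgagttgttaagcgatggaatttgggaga
Plin2: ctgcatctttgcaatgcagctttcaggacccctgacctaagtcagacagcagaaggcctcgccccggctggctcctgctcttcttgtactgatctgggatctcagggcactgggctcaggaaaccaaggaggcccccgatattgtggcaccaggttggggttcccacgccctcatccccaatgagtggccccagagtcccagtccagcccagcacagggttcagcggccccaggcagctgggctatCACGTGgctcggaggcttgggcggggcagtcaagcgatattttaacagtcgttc
Cd36: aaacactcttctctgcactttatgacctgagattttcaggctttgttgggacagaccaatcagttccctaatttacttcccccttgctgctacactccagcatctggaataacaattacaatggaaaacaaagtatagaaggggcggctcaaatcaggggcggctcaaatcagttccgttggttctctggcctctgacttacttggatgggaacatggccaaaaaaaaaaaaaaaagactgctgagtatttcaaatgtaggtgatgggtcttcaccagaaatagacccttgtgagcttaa
Spp1: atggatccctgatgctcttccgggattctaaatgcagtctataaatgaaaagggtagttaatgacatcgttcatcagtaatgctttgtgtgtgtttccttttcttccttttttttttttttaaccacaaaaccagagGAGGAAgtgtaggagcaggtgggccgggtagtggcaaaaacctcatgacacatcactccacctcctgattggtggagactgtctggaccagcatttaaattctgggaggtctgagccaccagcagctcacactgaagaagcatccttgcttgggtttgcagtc
The *Cd36* window held none of the 3 motifs as spelled. A match is a description of letters, and binding was not measured.

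Bleomycin was first compared with PBS in *Ephb4* control mice. *Lpl*, *Cd36* and *Plin2* had the largest differences, all lower after bleomycin, and *Spp1* differed least. The mean of *Lpl* was 143 ± 77.1 CPM (SD, n = 4) after bleomycin and 1249 ± 976 CPM (n = 4) after PBS, a log2 fold change of -3.12 ± 0.75 (SE) with a 95% interval of -4.71 to -1.53. *Cd36* averaged 216 ± 137 and 1308 ± 705 CPM, a log2 fold change of -2.59 ± 0.68. *Plin2* averaged 325 ± 58.7 and 1088 ± 630.2 CPM, a log2 fold change of -1.74 ± 0.51. The unadjusted p of these 3 genes was 0.000794, 0.00166 and 0.00387, and the adjusted p 0.268, 0.268 and 0.275, so none passed edgeR's quasi-likelihood test after Benjamini-Hochberg adjustment. That test called 0 of the 10 genes, as it called 0% of all genes. At an unadjusted p under 0.05 it held 4 members, all lower (the fourth was *Cd9*, -1.20 ± 0.49, adjusted p = 0.323), where 7.98% of all genes were lower at that level. In 3 members the control bleomycin libraries lay wholly below control PBS, as in 3.15% of all genes. DESeq2 called the same 3 members at adjusted p of 0.00204 (*Lpl*), 0.00933 (*Cd36*) and 0.0401 (*Plin2*), where it called 1.58% of all genes, and limma with voom called 0 members. The difference was -1.42 ± 0.72 for *Lgals3*, -1.04 ± 0.77 for *Fabp5*, -1.01 ± 1.07 for *Gpnmb*, -0.53 ± 0.94 for *Trem2*, -0.15 ± 0.34 for *Cd63* and 0.04 ± 0.61 for *Spp1*. In all, 9 members had a lower and 1 a higher value, with a median log2 fold change of -1.12 against -0.06 over all genes. This median was -0.36 without control PBS 4 (3 higher, 7 lower), -0.74 without control bleomycin 1, and 0.02 with the fibroblast marker mean as a covariate (5 higher, 5 lower). The 17 macrophage markers had a median of -0.82, with 14 lower and 3 higher.

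Control bleomycin 1 was the lowest of the 17 libraries for 8 members, with *Cd63* and *Spp1* the exceptions. Without it, in an alternative chosen after seeing the data, the 3 control bleomycin libraries left held 179 ± 35.3 CPM of *Lpl*, 281 ± 57.3 of *Cd36* and 351 ± 34.6 of *Plin2*, still below every control PBS library for these 3 members. The log2 fold changes were then -2.77, -2.18 and -1.60. With the macrophage marker mean as a covariate they were -2.71, -2.30 and -1.31, and with the fibroblast marker mean -2.04, -1.52 and -0.66. All control bleomycin libraries carry numbers of 1 series in their names (series 12), which only 1 control PBS library shares. With the series as a covariate the values were -1.67, -2.40 and -1.31. The columns of the deposited table form 2 sorted runs with 2 libraries of each of these groups in each, and within them *Lpl* differed by -2.79 and -3.16, *Cd36* by -1.70 and -4.15 and *Plin2* by -1.34 and -1.75. *Trem2* differed by 1.16 in the first run and by -2.28 in the second, and *Gpnmb* by 1.40 and -3.46, so that their direction was not the same in both. The second run held control PBS 4, the highest control PBS library for both genes. It also held control bleomycin 1, the lowest of all libraries for both, so a difference between runs cannot be told apart from these libraries. The part of culture makeup and series in these differences was not tested beyond these values.

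Cultures of *Ephb4* CKO and control mice were then compared after bleomycin. These groups also differ in 4-hydroxytamoxifen against corn oil, which cannot be told apart from the deletion. This comparison shares its control bleomycin libraries with the one above. *Lpl* averaged 1036 ± 453 CPM (SD, n = 4) in CKO bleomycin, *Cd36* 1515 ± 259 CPM, *Plin2* 1022 ± 393 CPM and *Cd9* 834 ± 318 CPM, against 381 ± 191 CPM of *Cd9* in control bleomycin. The log2 fold change was 2.85 ± 0.74 for *Lpl* (adjusted p = 0.187), 2.80 ± 0.68 for *Cd36* (adjusted p = 0.187), 1.65 ± 0.51 for *Plin2* (adjusted p = 0.201) and 1.13 ± 0.49 for *Cd9* (adjusted p = 0.230 by edgeR). It was 1.98 ± 0.74 for *Lgals3*, 2.08 ± 1.10 for *Gpnmb*, 1.84 ± 0.97 for *Trem2*, 1.41 ± 0.77 for *Fabp5*, 0.42 ± 0.34 for *Cd63* and 0.11 ± 0.61 for *Spp1*. All 10 values were above 0, with a median of 1.74 against 0.01 over all genes, and with 1 below 0 (*Spp1*) by limma with voom. The macrophage markers were higher too, in 17 of 17, with a median of 1.14 and 8 of them without overlap. With the macrophage marker mean as a covariate the median of the members was 0.80 (9 higher, 1 lower), and with the fibroblast marker mean 0.99 (8 higher, 2 lower). The smallest adjusted p by edgeR's quasi-likelihood test was 0.187, so 0 members were called, as were 0% of all genes. At an unadjusted p under 0.05 the test held 5 members, all higher, where 11% of all genes were higher at that level. The 4 CKO bleomycin libraries lay wholly above control bleomycin in 4 members (*Lpl*, *Cd36*, *Plin2* and *Cd9*), as in 11.1% of all genes. DESeq2 called *Lpl*, *Cd36* and *Plin2*, 3 members, at adjusted p of 0.00589, 0.0038 and 0.0375, where it called 3.81% of all genes, and limma with voom called 0.

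Without control bleomycin 1 the same 4 members stayed above, and the log2 fold change was 2.5 for *Lpl*, 2.40 for *Cd36* and 1.5 for *Plin2*, with adjusted p of 0.483 by edgeR. It was 2.14, 1.97 and 0.99 with the macrophage marker mean as a covariate and 2.05, 2.06 and 0.83 with the fibroblast marker mean. All control bleomycin libraries are of number series 12, while CKO bleomycin has 2 of series 11 and 2 of series 12. With the series as a covariate the median of the members was 1.59, with 10 higher. Within series 12 (2 CKO against 4 control libraries) it was 2.14, with 10 higher. Within the 2 runs of columns *Lpl* differed by 3.15 and 2.87, *Cd36* by 2.41 and 4.24, *Plin2* by 1.63 and 1.53 and *Cd9* by 1.11 and 1.53. *Trem2* differed by 0.65 in the first run and 4.03 in the second, and *Gpnmb* by 0.53 and 4.44. Over the 10 members the median difference was 0.90 in the first run and 2.77 in the second. The second run held control bleomycin 1, and the first held CKO bleomycin 3, the lowest of its group for *Trem2* and *Gpnmb*. With DESeq2 and the runs as a covariate, also chosen after seeing the data, the 3 members were called in both comparisons. Beside them, 2.2% of all genes were called for bleomycin against PBS in control mice and 3.69% for CKO against control after bleomycin.

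**Figure D2:**
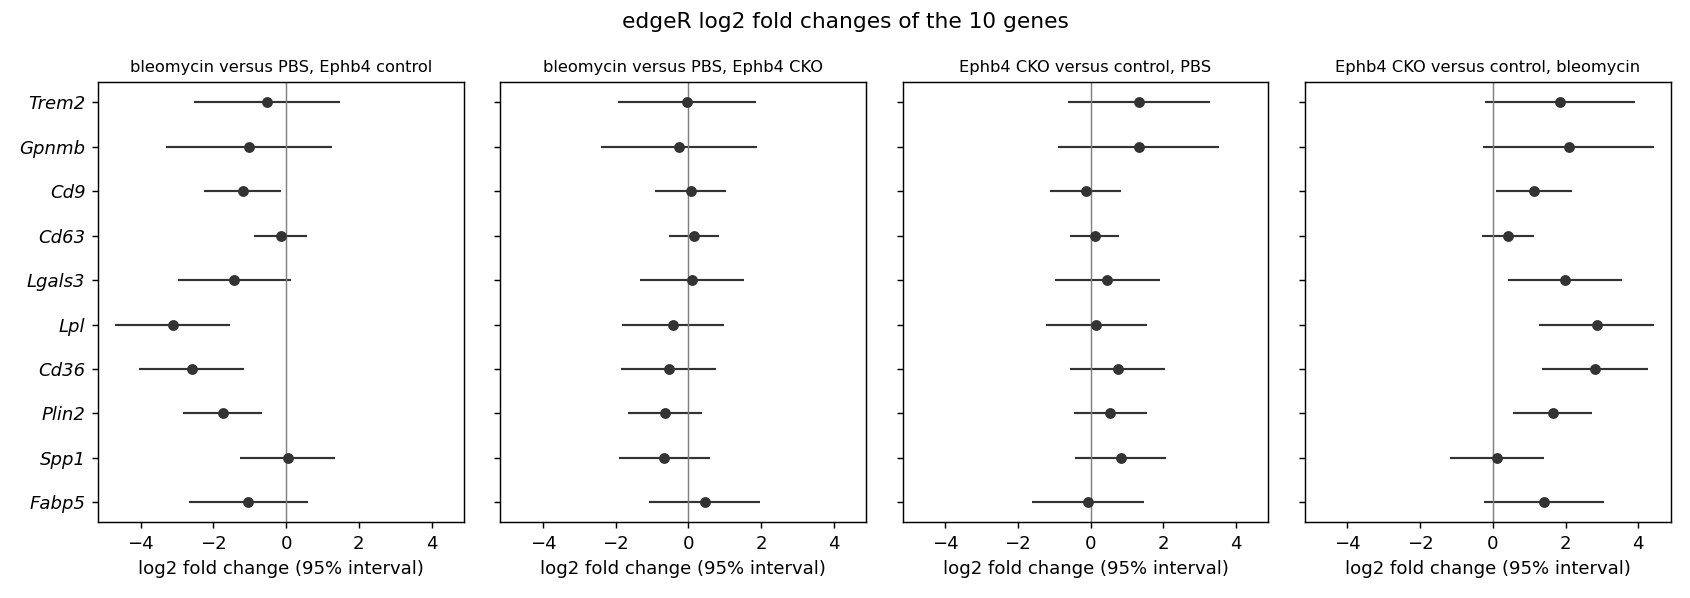
Log2 fold change of each of the 10 genes by edgeR (x axis, points with 95% intervals) in the comparisons of bleomycin with PBS and of CKO with control. *Lpl* has the lowest value after bleomycin in control mice (-3.12) and the highest in CKO against control after bleomycin (2.85), while *Spp1* lies near 0 in both (0.04 and 0.11).

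The other comparisons showed smaller differences. Between CKO PBS and control PBS the members with the smallest p were *Trem2* (1.34 ± 0.92), *Spp1* (0.82 ± 0.59) and *Gpnmb* (1.32 ± 1.04), each at an adjusted p of 1.00. Leaving out 1 library at a time moved *Trem2* between 0.75 and 2.76, *Gpnmb* between 0.67 and 2.63 and *Spp1* between 0.55 and 1.39, with the highest values of *Trem2* and *Gpnmb* and the lowest of *Spp1* reached without control PBS 4. Here 8 members were higher and 2 lower, with a median of 0.50 against -0.02 over all genes. Without control PBS 4 all 10 were higher (median 0.75) and 3 had an unadjusted p under 0.05 by edgeR. In that fit 702 of the 10481 genes kept had such a p, against 209 with all libraries. Without CKO PBS 5 the median was 0.15. Between CKO bleomycin and CKO PBS the smallest p were those of *Plin2* (-0.63 ± 0.48), *Spp1* (-0.66 ± 0.59) and *Cd36* (-0.54 ± 0.61), each at an adjusted p of 1.00. Here 4 members were higher and 6 lower, with a median of -0.14 against -0.03. These signs turned with single libraries: without CKO PBS 1, 6 were higher (median 0.08), without CKO bleomycin 3 also 6 (median 0.12), and without CKO bleomycin 4 just 1 (median -0.27). For *Lpl*, the log2 fold change of bleomycin in CKO mice had a 95% interval of -1.83 to 0.97. With all libraries, edgeR called 0 members and 0% of all genes in both comparisons, with 0 members at an unadjusted p under 0.05, and DESeq2 and limma with voom called 0 members. The effect of bleomycin differed between the genotypes by 2.70 ± 0.96 for *Lpl* and 2.06 ± 0.89 for *Cd36*, both more positive in CKO mice and both at an adjusted p of 0.916. By this interaction test 0 members and 0% of all genes were called with edgeR, 2 members had an unadjusted p under 0.05 (both higher, as had 1.89% of all genes), and DESeq2 and limma with voom called 0 members. With the number series or the fibroblast marker mean as a covariate 0 members reached an unadjusted p under 0.05.

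Because macrophage markers took such different shares, each member was also set against the mean log2 CPM of the 17 macrophage markers of the same library. On this scale *Cd36* was 2.79, 2.68, 2.13 and 2.81 log2 units above the markers in control PBS, 0.39, 0.24, 0.56 and 0.33 in control bleomycin, 3.33, 2.68, 1.93, 3.93 and 1.89 in CKO PBS and 1.91, 2.43, 2.0 and 2.52 in CKO bleomycin. The 4 control bleomycin values, that of control bleomycin 1 included, averaged 0.38 ± 0.13 (SD, n = 4) and lay below all others. The difference was -2.22 for bleomycin against PBS in control mice and 1.83 for CKO against control after bleomycin, each with a two-sided exact permutation p of 0.0286, which is the smallest that 4 against 4 libraries allow, and an adjusted p of 0.381 over the 40 tests. *Lpl* was lower by the same measure after bleomycin in control mice (0.05 ± 0.70 against 2.31 ± 0.87, difference -2.27, exact permutation p = 0.0286, no overlap). Its difference between CKO and control after bleomycin was 1.51 (exact permutation p = 0.0571). *Plin2* differed by -0.84 and 0.09 in these comparisons, with exact permutation p of 0.343 and 1.00, and its highest value was that of control bleomycin 1. *Trem2* differed by 0.15 and 0.85 and *Spp1* by 0.92 and -1.69, with overlapping groups. None of the 40 tests passed adjustment.

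**Figure D3:**
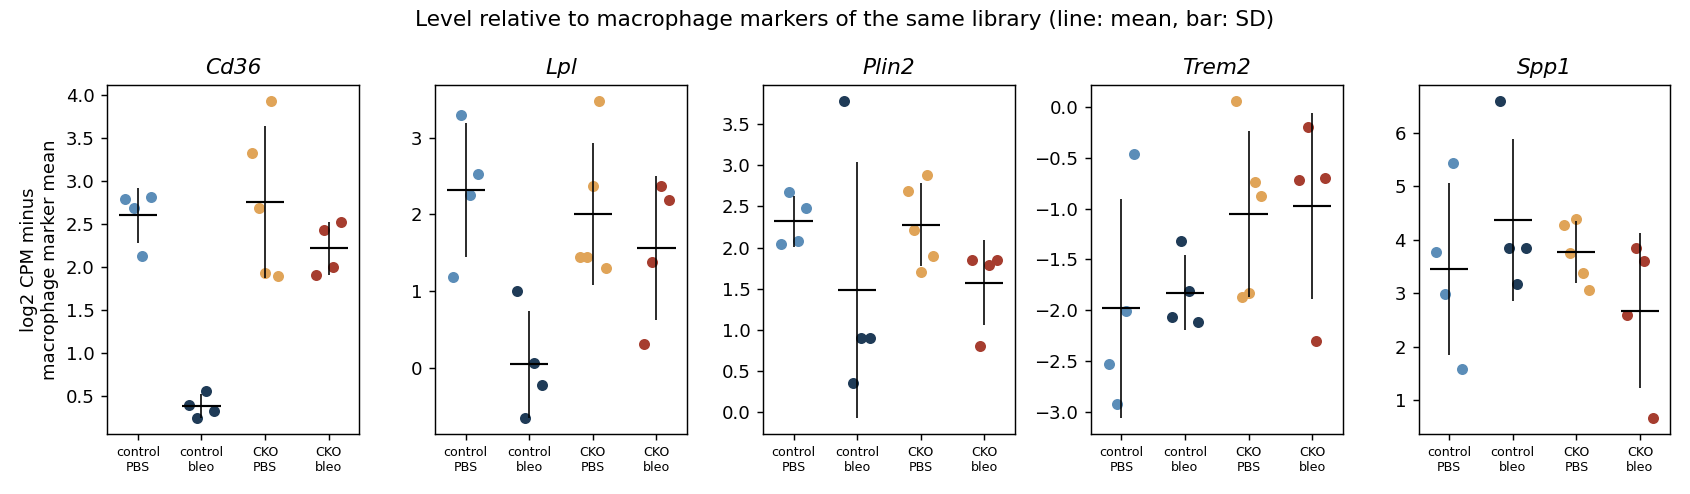
Log2 CPM minus the mean log2 CPM of 17 macrophage markers of the same library (y axis) for 5 of the genes by group, with each library as a point and the mean and SD as lines. The control bleomycin points of *Cd36* lie between 0.24 and 0.56, below all others, while those of *Trem2* and *Spp1* overlap the other groups.

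Across the 17 libraries, levels of most members followed the macrophage marker mean. Pearson's r was 0.886 for *Trem2* (Spearman's rho 0.865), 0.863 for *Lgals3* (rho 0.843), 0.837 for *Fabp5* (rho 0.669), 0.818 for *Cd36* (rho 0.659) and 0.793 for *Gpnmb* (rho 0.716), with permutation p adjusted over 20 relations of 0.0001, 0.000133, 0.00076, 0.0014 and 0.0009. It was 0.717 for *Lpl*, 0.701 for *Cd9* (rho 0.270), 0.690 for *Plin2*, 0.330 for *Cd63* and 0.209 for *Spp1*. Leaving out the 2 libraries farthest from the median marker mean, control bleomycin 1 and CKO PBS 5, gave 0.795 for *Trem2*, 0.765 for *Lgals3*, 0.672 for *Fabp5*, 0.609 for *Gpnmb*, 0.457 for *Cd36* and *Cd9*, 0.370 for *Lpl*, 0.501 for *Plin2*, 0.498 for *Cd63* and -0.148 for *Spp1*. The relation of *Cd36*, *Cd9*, *Lpl* and *Plin2* thus rested in part on these libraries, and that of *Spp1* turned sign. For *Trem2* it was 0.811 over the 8 libraries of series 11 and 0.921 over the 9 of series 12, and for *Spp1* 0.0862 and 0.564. The fibroblast marker mean fell into separate clusters of 10 libraries (-0.02 to 3.8 in log2 CPM) and 7 libraries (5.55 to 8.10), so no pooled relation with it is given. Within these clusters r of *Cd9* with the macrophage mean was -0.395 and 0.960, and its r with the fibroblast mean was -0.825 and -0.640, and that of *Spp1* was 0.704 and -0.608. The permutations moved libraries freely across the 4 groups. Their p-values thus do not separate differences between groups from relations among the mice of a group.

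**Figure D4:**
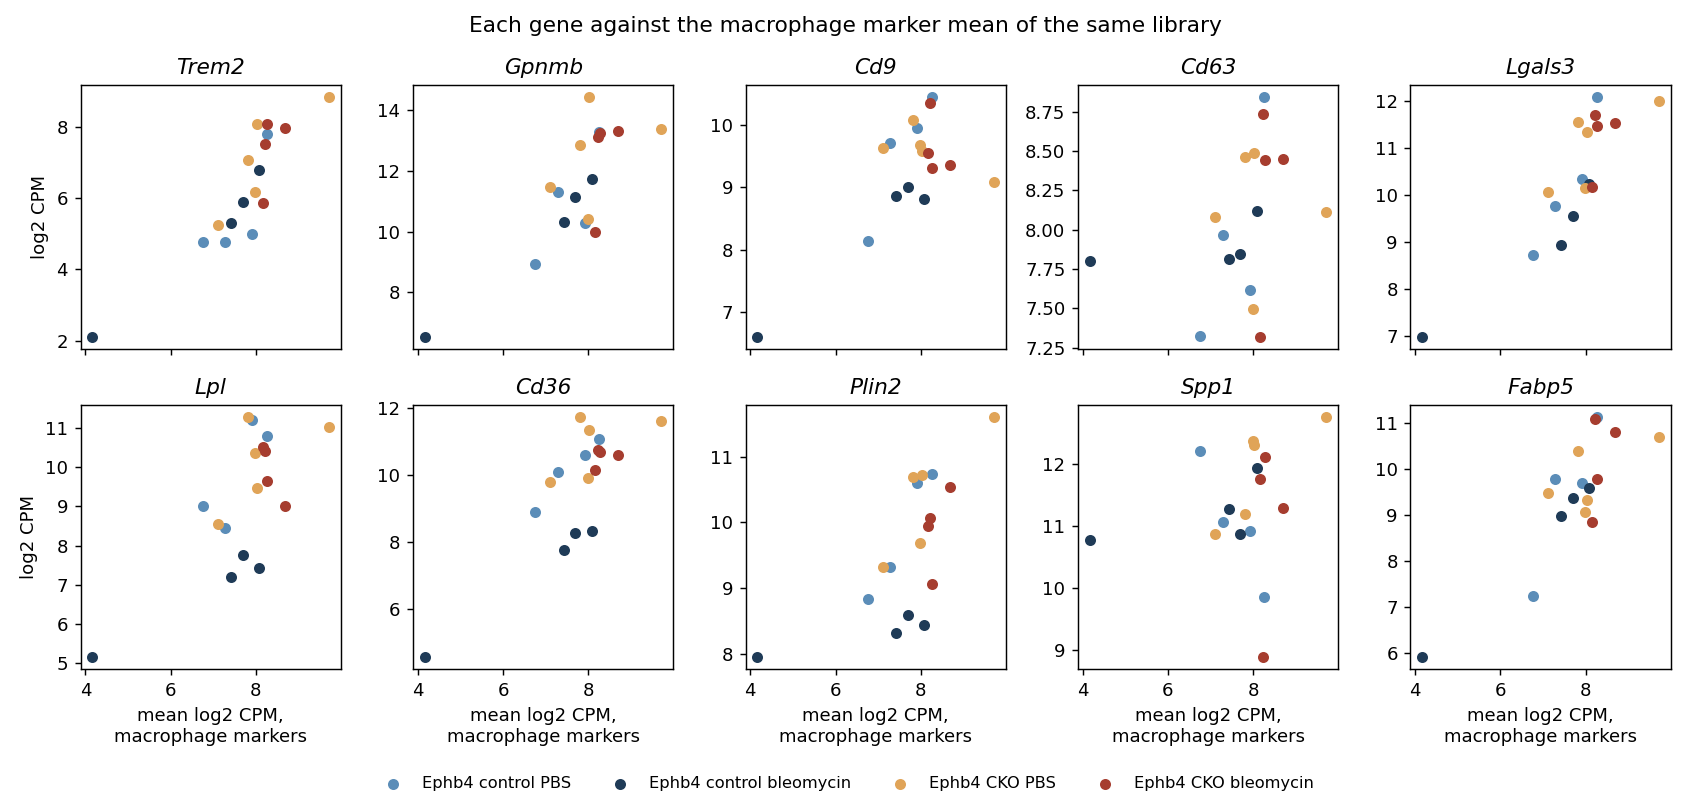
Log2 CPM of the genes (y axis) against the mean log2 CPM of the 17 macrophage markers (x axis), 1 point per library, coloured by group. *Trem2* follows the marker mean (r = 0.886), *Spp1* does not (r = 0.209), and control bleomycin 1 is the point farthest left.

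The members were also compared with each other, over the same 17 libraries, which share depth and culture makeup. *Trem2*, *Gpnmb* and *Lgals3* had r of 0.93 for each of the 3 pairs (adjusted permutation p of 7.5e-05 over 45 pairs, the smallest these permutations gave). *Trem2* and *Gpnmb* kept r of 0.89 without the 2 libraries farthest from the median, and 0.93 and 0.95 within the number series. *Lpl*, *Cd36* and *Plin2* had r of 0.90 for *Lpl* and *Cd36*, 0.86 for *Cd36* and *Plin2* and 0.84 for *Lpl* and *Plin2*. *Cd36* was closest of all to *Lgals3* (0.91), which was as close to *Fabp5* (0.91). The lowest r between these 2 trios was that of *Gpnmb* and *Lpl*, 0.55, and 0.25 without control bleomycin 1. *Cd63* was closest to *Gpnmb* (0.77, and 0.90 without control bleomycin 1). *Spp1* had r between -0.43 and 0.15 with the 9 others, and 0 of its 9 pairs passed adjustment. Its relations were unlike in the number series: with *Trem2* r was -0.196 over the 8 libraries of series 11 and 0.761 over the 9 of series 12. The p-values of the pairs also came from permutations across all libraries, regardless of group.

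**Figure D5:**
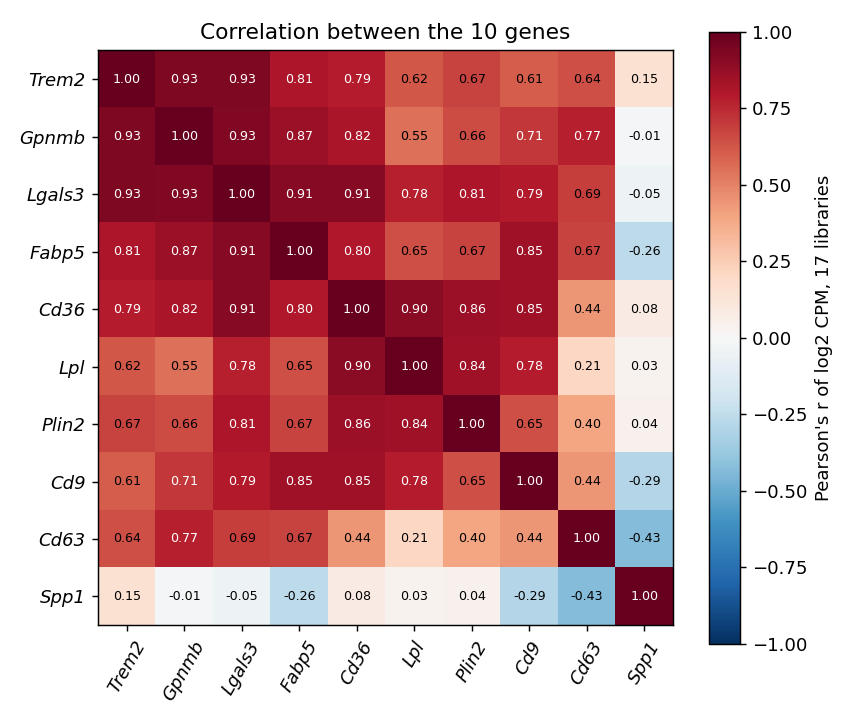
Pearson's r of log2 CPM between the 10 genes over 17 libraries, as a colour and a number in each cell. *Spp1*, the last row, has values from -0.43 to 0.15, while *Trem2*, *Gpnmb* and *Lgals3* reach 0.93 with each other.

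Of all genes kept, those with a pattern most like each member were taken as the 3 highest r over the 17 libraries, as a description. For *Trem2* they were *Hk3* (0.97), *Ptpro* (0.97) and *Cd180* (0.97), and for *Gpnmb* *Kif3b* (0.97), *Mcoln2* (0.96) and *Itprid2* (0.96). *Lgals3* was closest to *Dnase1l1* (0.99), *Casp9* (0.98) and *Cln8* (0.98), and *Fabp5* to *Rilpl2* (0.98), *Pik3r5* (0.98) and *Plekhm2* (0.97). *Cd36* was closest to *C920009B18Rik* (0.97), *Dram2* (0.96) and *Vps4b* (0.96), *Lpl* to *Nostrin* (0.93), *Slc16a10* (0.92) and *Pycard* (0.92), and *Plin2* to *Slfn2* (0.95), *Flad1* (0.94) and *Gch1* (0.94). *Cd9* was closest to *Sord* (0.98), *Dusp13* (0.97) and *Lcp1* (0.97), and *Cd63* to *Kif1c* (0.96), *Wsb2* (0.95) and *Tmem251* (0.95). For *Spp1* no gene came above 0.82 (*Fmnl2*, followed by *Jarid2* at 0.81 and *Arap3* at 0.79).

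Genes with roles next to those of the members were read from 10 lists of 77 genes, of which 68 passed the filter. Like the members, these lists were chosen with earlier results of these data known, so counts beside the shares of all genes are a description. After bleomycin in control mice 14 of them were lower and 4 higher at an unadjusted p under 0.05, and in CKO against control after bleomycin 26 were higher and 3 lower, beside 7.98% of all genes lower and 6.28% higher in the former and 11% higher and 9.18% lower in the latter. The median log2 fold change was -0.70 and 0.97 in these comparisons, against -0.06 and 0.01 over all genes. After adjustment edgeR called 0 of the 68 in either. In lipid storage and breakdown all 10 genes kept of 14 were lower after bleomycin in control mice and 3 had p under 0.05: *Abhd5*, the activator of triglyceride lipase (-0.96 ± 0.29, adjusted p = 0.275), *Hilpda*, a lipase inhibitor at droplets (-2.65 ± 0.97), and *Mgll*, monoacylglycerol lipase (-1.68 ± 0.78). In CKO against control after bleomycin 7 of the 10 were higher at that level, among them *Abhd5* (0.90 ± 0.29), *Soat1*, which esterifies cholesterol (1.24 ± 0.44), and *Plin3*, another droplet coat protein (0.85 ± 0.34). The droplet coat genes *Plin1*, *Plin4* and *Plin5* had a median under 1 CPM, as had the adipocyte markers *Adipoq*, *Lep*, *Retn* and *Cfd*.

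Partners of TREM2 (7 kept of 9) included 2 that were higher at unadjusted p under 0.05 in CKO against control after bleomycin, the kinase gene *Syk* (1.52 ± 0.64) and *Adam17*, whose product sheds the receptor (1.19 ± 0.43). Its adaptor *Tyrobp* differed by 1.34 ± 0.68, outside that level. Of the MiT/TFE and fatty acid sensing factors 7 of 7 kept were higher and 4 of them at that level, with *Mitf* at 1.51 ± 0.53, *Tfeb* at 1.23 ± 0.47 and *Pparg* at 1.58 ± 0.73. The list of lipid uptake (9 of 9 kept) was mixed, with 5 higher and 4 lower after bleomycin in control mice (median 0.03). There 1 gene was higher at that level and 1 lower, the oxidised lipoprotein receptor gene *Olr1* (-1.90 ± 0.74). In CKO against control after bleomycin 4 of the list were higher and 5 lower (median -0.11), with 1 lower and 0 higher at that level. In cholesterol efflux 7 of 7 were higher in CKO against control after bleomycin and 2 of them at that level, *Npc1* (0.80 ± 0.33) and the liver X receptor gene *Nr1h3* (1.75 ± 0.76). Among fatty acid binding proteins *Fabp4* differed by -1.98 ± 0.90 after bleomycin in control mice and by 1.82 ± 0.89 in CKO against control after bleomycin.

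The lists of tetraspanins, galectins and osteopontin receptors held genes of opposite sign. *Cd82* was lower after bleomycin in control mice (-1.42 ± 0.36, adjusted p = 0.268) where *Tspan4*, another tetraspanin gene, was higher (0.92 ± 0.24, adjusted p = 0.268). *Lgals1*, the gene of galectin-1, was higher after bleomycin in control mice (1.12 ± 0.29) and lower in CKO against control after bleomycin (-0.92 ± 0.29), opposite to *Lgals3* in both. Of the integrin genes whose products bind osteopontin, *Itgb5* differed by 1.10 ± 0.35 and *Itga4* by -1.24 ± 0.57 after bleomycin in control mice, and *Itgb1*, which the study itself picked from these samples, by -1.0 ± 0.31 in CKO against control after bleomycin. Among enzymes of scar macrophages the elastase gene *Mmp12* was higher in CKO than in control mice after PBS (2.89 ± 1.01) and after bleomycin (2.89 ± 1.03). After PBS its groups overlapped, with 752 to 44578 CPM in CKO (highest in CKO PBS 1) and 509 to 2866 in control. *Ctsl*, a lysosomal cathepsin gene, was higher in CKO after PBS (2.03 ± 0.74). Its PBS groups overlapped too, at 788 to 11013 CPM in CKO (highest in CKO PBS 5) and 791 to 1372 in control. *Acp5*, the gene of tartrate-resistant acid phosphatase, differed by -1.75 ± 0.56 after bleomycin in control mice and by 1.55 ± 0.55 in CKO against control after bleomycin. All of these had an adjusted p above 0.05 by edgeR.

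Markers of other cells were read beside the members, and edgeR called 0 of them after adjustment in these comparisons. The 8 markers of resident alveolar macrophages, all kept, were lower after bleomycin in control mice in 8 of 8 (median -3.22, 4 at an unadjusted p under 0.05), and higher in CKO against control after bleomycin in 8 of 8 (median 2.93, 4 at that level). Their sum ran from 1665 to 8812 CPM in control PBS, from 198 to 1455 in control bleomycin, from 1432 to 5790.5 in CKO PBS and from 1054 to 6273 in CKO bleomycin. The 12 fibroblast markers had the opposite signs in all 12, with medians of 2.57 and -2.95, and 3 and 4 at an unadjusted p under 0.05. Of all genes, 7.98% were lower and 6.28% higher at that level after bleomycin in control mice. In CKO against control after bleomycin 11% of all genes were higher and 9.18% lower at that level. Lymphocyte markers (5 of 5), dendritic cell markers (4 of 5) and neutrophil markers (3 of 5) mostly had a median under 1 CPM. Epithelial markers (6 of 7 kept) summed to between 19.1 and 1493 CPM over the libraries, and endothelial markers (7 of 7 kept) to between 48.8 and 298 CPM. The part of alveolar macrophage content in the values of *Lpl*, *Cd36* and *Plin2* was not tested.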

How the data were processed

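Lung fibroblast cultures of 17 mice were profiled by total RNA sequencing with 75 bp paired reads. The authors deposited gene counts, not normalized. Per the labels and the submitters' processing notes, reads were trimmed with Cutadapt 1.18 and aligned to GRCm38 with HISAT2 2.1.0, and StringTie was used. Here, genes above 10 CPM in at least 2 libraries were kept (10481 of 55421). The 10 members and all lists were chosen with earlier results of these data known. Groups came from the labels. Counts were tested with edgeR 4.0.16 (TMM, quasi-likelihood, 1 model of all 4 groups) in R 4.3.3, with Benjamini-Hochberg adjustment over all genes kept and a threshold of 0.05. The test was tested on simulated data. DESeq2 1.42.0, limma 3.58.1 with voom, other normalization and filters, covariates and left-out libraries were alternatives. Log2 CPM used a prior count of 2. Permutation tests (exact, or 100000 resamples for correlations) used scipy 1.17.1. Each library is 1 mouse, so p-values of the group comparisons measure the spread between mice and their cultures. Libraries held 66540022 to 120554468 counts, and the lowest count of a member was 518 (*Trem2* in control bleomycin 1).

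Named genes were the members, *Ephb4*, up to 3 genes a list with the smallest p in a comparison, the 3 genes most correlated with each member, markers under 1 CPM, and copies or overlaps of members. Promoter windows came from RefSeq. No column of the table was left out. A result on 1 gene of the lists is not reported here.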

Additional observations from a re-analysis of the deposited data

Results flagged for a closer look

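In each group, the highest or lowest library of each gene was compared with the rest by the gap to its nearest neighbour over the group's range (Dixon's test). Of 40 such tests, 7 passed, where chance passes about 1 in 20. The genes vary together over the same libraries, so these tests are not independent and the 7 do not measure an excess over that rate. Control bleomycin 1 was low for *Cd9* (96.9 CPM, others 451 to 511), *Cd36* (23.6 CPM, others 215 to 321) and *Fabp5* (59.95 CPM, others 504 to 776). CKO bleomycin 3 was low for *Gpnmb* (1009 CPM, others 8895 to 10096) and *Lgals3* (1153 CPM, others 2826 to 3296). Control PBS 4 was high for *Trem2* (221 CPM, others 26.9 to 31.9), and control bleomycin 2 was high for *Cd63* (278 CPM, others 223 to 230.5). Control bleomycin 2 is also 1 of the 3 libraries whose sex chromosome genes went against the label.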

How the results depend on the processing

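The count of members called was 0 under every alternative run but those with DESeq2, which called 3 with and without the column runs, in bleomycin against PBS in control mice and in CKO against control after bleomycin. The sign of several differences turned. For bleomycin in control mice, the fibroblast covariate gave *Trem2* 0.42, *Gpnmb* 0.96, *Cd63* 0.54, *Lgals3* 0.067, *Fabp5* 0.94 and *Spp1* -1.58, the macrophage covariate gave *Trem2* 0.061, and leaving out the 3 libraries of doubtful sex gave *Spp1* -0.25. Leaving out 1 library at a time gave -1.16 to 0.89 for *Trem2*, -1.55 to 0.29 for *Gpnmb*, -0.29 to 0.25 for *Cd63* and -0.25 to 0.63 for *Spp1*. Without control PBS 4, *Trem2* was 0.89, *Gpnmb* 0.29 and *Cd63* 0.25. For CKO against control after bleomycin, *Spp1* was -0.23 by voom, -0.10 with the macrophage covariate and -0.090 without the doubtful libraries, and -0.23 to 0.47 with 1 library left out, and the fibroblast covariate gave *Cd63* -0.13 and *Fabp5* -0.011. *Lpl* after bleomycin in control mice ran from -3.43 to -2.59 with 1 library left out. The median r of the 10 members with the macrophage mean went from 0.755 to 0.50 without the 2 farthest libraries. Over all alternatives, single values were tallied for every member only for bleomycin in control mice and for CKO against control after bleomycin. In the other comparisons only the members with the smallest p were tallied. Of these, 777 single values kept their direction and their side of the threshold, as did 160 counts. Another 24 single values turned sign and 12 came past the threshold, those of *Lpl*, *Cd36* and *Plin2* by DESeq2. Members left out of this tally turned sign as well, as given above for CKO bleomycin against CKO PBS. The causes were not tested. No paired analysis was possible because no number in the library names is shared by groups that were compared directly with each other. Numbers are shared only by groups that met in the interaction test or in relations over all libraries. The replicate numbers here follow accession order.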

Other observations

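By the median absolute log2 difference over all genes kept, 6 of the 17 libraries had their nearest library in their own group, and by the 10 members alone also 6 of 17. Over all genes these were every control bleomycin library and CKO bleomycin 1 and 2. By the members they were control bleomycin 2, 3 and 4, CKO PBS 5 and CKO bleomycin 1 and 2. The closest pair over all genes was control bleomycin 3 and 4 (0.114).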
